A study of Mus musculus with 12 samples.

Results

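The E2F transcription factors are described here by their 8 genes, E2f1 to E2f8. The rule that picked them used gene symbols alone and no measured value, although earlier results of these data were known when they were chosen. They are 8 of the 47069 genes in the table. PolyA RNA was sequenced in 12 libraries from mice at postnatal day 14 (P14), with 3 libraries in each of 4 groups. Wild type mice (WT) were compared with Cdk1 Liv-/- mice, which carry Cdk1 flox/flox and Albumin-Cre. RNA came either from isolated hepatocytes or from whole liver. The comparison asks what happens to the liver when its hepatocytes lose the kinase that drives them into mitosis. Albumin-Cre deletes in cells of the hepatocyte lineage, so other liver cells keep Cdk1 and whole liver contains both. Per the study's methods, the mice were male.

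E2F proteins bind DNA, mostly together with a DP partner, and set the transcription of genes that cells need for DNA synthesis and mitosis. Pocket proteins of the Rb family hold them inactive until cyclin-dependent kinases phosphorylate the pocket proteins. E2F1, E2F2 and E2F3 are known as activators and E2F4 and E2F5 as repressors that work with pocket proteins, while E2F6 works with Polycomb proteins and E2F7 and E2F8 repress without a DP partner. In the liver, E2F7 and E2F8 are known for their part in hepatocyte polyploidization.

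Levels are in FPKM, fragments per kilobase of transcript scaled to the mapped total, a unit per length that allows levels of different genes to be set side by side. Fold changes are differences of log2(FPKM + 0.5) and understate the change of low genes. A gene passed the test when its limma p-value, after Benjamini-Hochberg adjustment across 17386 genes tested, was at most 0.1, and rose, fell or changed is used only for such genes. All 8 E2f genes were among the genes tested.

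Cdk1 itself (ENSMUSG00000019942, chr10:69335146-69352938, minus strand) was lower in every Cdk1 Liv-/- library than in every WT library of the same compartment. In hepatocytes it stood at 27.88, 20.38 and 28.16 FPKM in WT and at 9.68, 11.80 and 6.87 FPKM in Cdk1 Liv-/-. In whole liver it stood at 25.32, 22.69 and 21.50 FPKM in WT and at 11.66, 12.07 and 14.17 FPKM in Cdk1 Liv-/-. The groups did not overlap, and Cdk1 fell by 1.40 on the log2 scale in hepatocytes (SE 0.22, n = 3 per group, limma adjusted p = 0.0148) and by 0.85 in whole liver (SE 0.098, adjusted p = 0.00353). It also fell without WT hepatocyte replicate 3 (by 1.32, adjusted p = 0.0516) and without Cdk1 Liv-/- whole liver replicate 3 (by 0.93, adjusted p = 0.00798), the libraries described next. The deleted region is an internal exon and the values are for the whole gene, so reads from the remaining exons still count and the labels are checked only in part.

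Before the results, 2 libraries stand apart. Whole liver Cdk1 Liv-/- replicate 3 had 158.32 FPKM of Xist, a transcript of the inactive X chromosome, and 0 FPKM of the Y-linked gene Ddx3y. The other 11 libraries had Xist between 0 and 0.14 FPKM and Ddx3y between 14.31 and 22.65 FPKM, and the methods name male mice only. WT hepatocyte replicate 3 had more RNA of cells other than hepatocytes than the remaining WT hepatocyte libraries: its summed sinusoidal endothelial markers were 145 FPKM, against 83.0 and 54.9 FPKM, and its summed erythroid markers 586 FPKM, against 149 and 110 FPKM. Calls of E2f genes, Cdk1 and the counts of the gene lists are given with and without these libraries. All WT hepatocyte libraries lay above the Cdk1 Liv-/- hepatocyte libraries in endothelial markers (38.9, 24.7 and 27.9 FPKM in the latter). Leaving out WT replicate 3 does not even this out, as 4 of 5 of these markers still fell.

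Among themselves, the E2f genes differed more in level than most of them differed between groups. E2f4 had the highest level in every group, with hepatocyte means of 8.94 ± 0.986 FPKM (WT) and 9.33 ± 0.571 FPKM (Cdk1 Liv-/-) and whole liver means of 11.0 ± 0.287 FPKM (WT) and 12.7 ± 0.978 FPKM (Cdk1 Liv-/-) (SD, n = 3 each). E2f6 came next in each group, and its libraries did not overlap with those of E2f4. E2f2 and E2f7 had the lowest means in each group.

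In WT hepatocytes the order below E2f4 was E2f6 (4.48 ± 0.652 FPKM), E2f3 (3.87 ± 0.495), E2f5 (3.08 ± 0.350), E2f8 (3.00 ± 0.40), E2f1 (2.71 ± 0.376), E2f2 (1.27 ± 0.0850) and E2f7 (0.687 ± 0.168). Neighbours from E2f6 down to E2f1 overlapped, while E2f1 lay above E2f2 and E2f2 above E2f7 in all 3 libraries. In Cdk1 Liv-/- hepatocytes E2f1 (5.52 ± 1.51 FPKM) and E2f8 (5.11 ± 0.983) stood directly below E2f6 (6.05 ± 0.110) and above E2f3 (4.02 ± 0.837) and E2f5 (3.75 ± 0.699), again with overlapping neighbours. E2f2 (1.43 ± 0.736) and E2f7 (0.563 ± 0.320) overlapped in that group.

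In WT whole liver the order below E2f4 was E2f6 (5.38 ± 0.107 FPKM), E2f5 (3.25 ± 0.156), E2f3 (3.10 ± 0.146), E2f1 (2.93 ± 0.107), E2f8 (2.83 ± 0.0764), E2f2 (1.68 ± 0.123) and E2f7 (0.497 ± 0.0907). Neighbours from E2f5 down to E2f8 overlapped and the others did not. In Cdk1 Liv-/- whole liver E2f5 (4.60 ± 0.682) and E2f1 (4.18 ± 0.364) stood above E2f3 (3.36 ± 0.448) and E2f8 (2.98 ± 0.678), with overlap between neighbours, and E2f6 (5.51 ± 0.196) lay above them all.

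**Figure D1:**
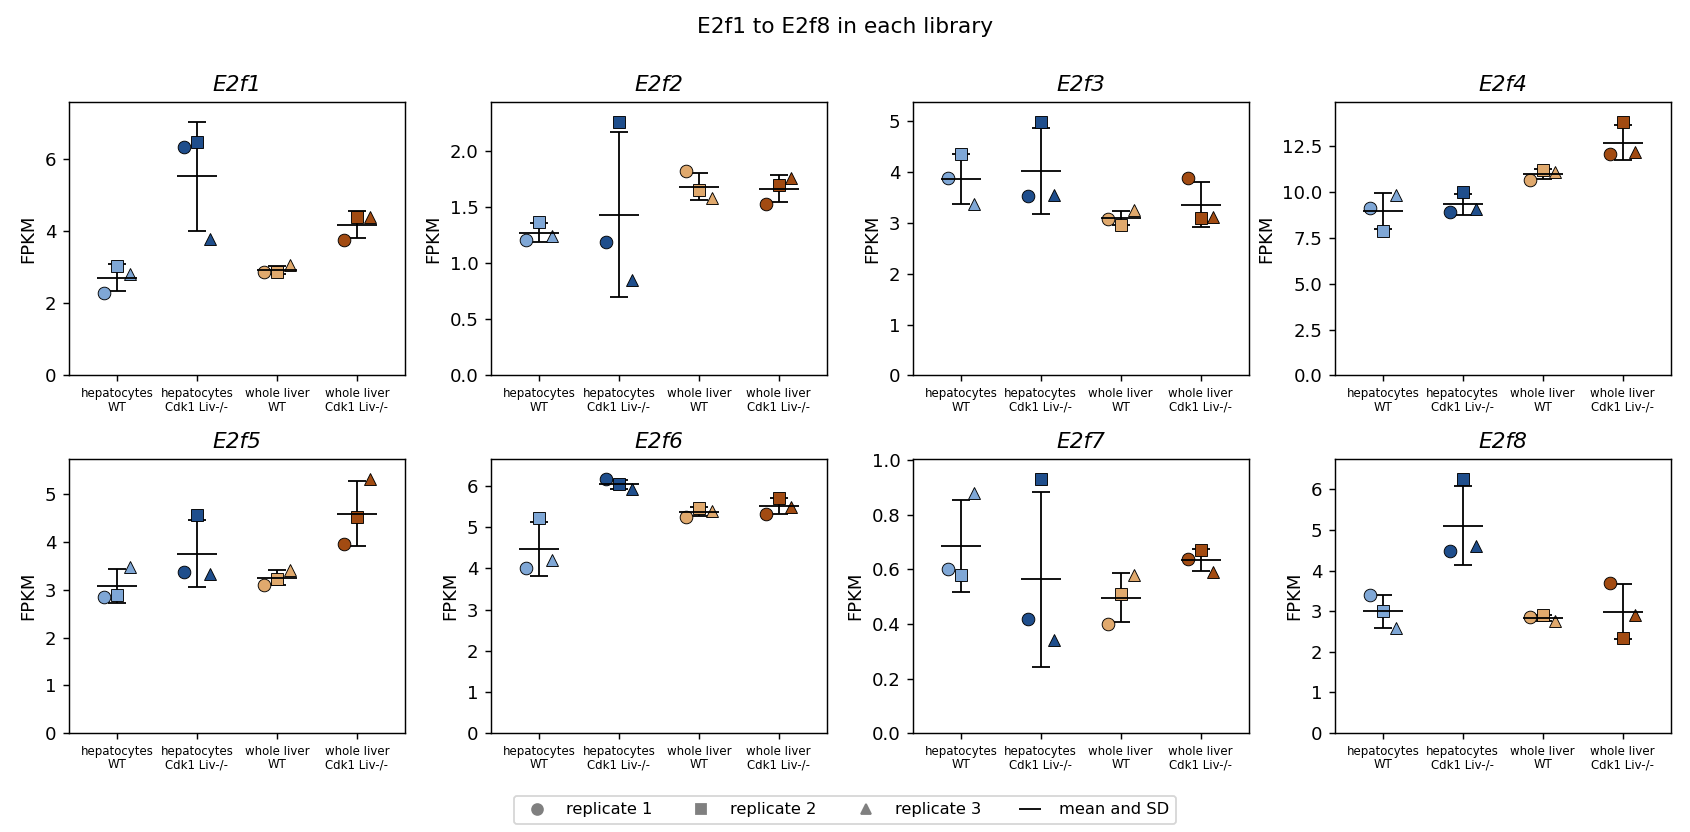
Level of each E2f gene in FPKM (vertical axes, each from 0) in the 12 libraries, by compartment and genotype, with the group mean and SD as black lines and replicates 1 to 3 as circle, square and triangle. E2f1 and E2f8 in Cdk1 Liv-/- hepatocytes lie above all 3 WT hepatocyte libraries, while E2f4 is the highest gene in every group and E2f7 the lowest.

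Between genotypes, E2f1 and E2f8 were higher in isolated Cdk1 Liv-/- hepatocytes, and no E2f gene was lower past the threshold. Of the 8 genes, 2 rose and 0 fell in hepatocytes, where 12.1% of all genes tested rose and 6.61% fell. The tool was limma, and 3 of the 8 had an unadjusted p under 0.05. The median log2 difference of the E2f genes was 0.15, against 0.049 over all genes tested. For 3 of the 8, E2f1, E2f6 and E2f8, the libraries of the genotypes did not overlap, as was true for 34.0% of all genes.

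Whole liver showed a different set of E2f genes: E2f1, E2f4 and E2f5 rose in Cdk1 Liv-/- and 0 fell. There, 38.0% of all genes rose and 7.53% fell, so a rise was common among all genes. The median over all genes tested was shifted by 0.18 on the log2 scale, and that of the E2f genes was 0.14. For 4 of the 8, E2f1, E2f4, E2f5 and E2f7, the libraries did not overlap, against 52.1% of all genes. Relative to the shift of all genes, E2f1 was 0.27 and E2f5 0.25 higher while E2f4 was only 0.018 higher, and with median-ratio size factors E2f4 turned to -0.013 (adjusted p = 0.888). Whether the E2f genes respond differently in the 2 compartments is tested further on.

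**Figure D2:**
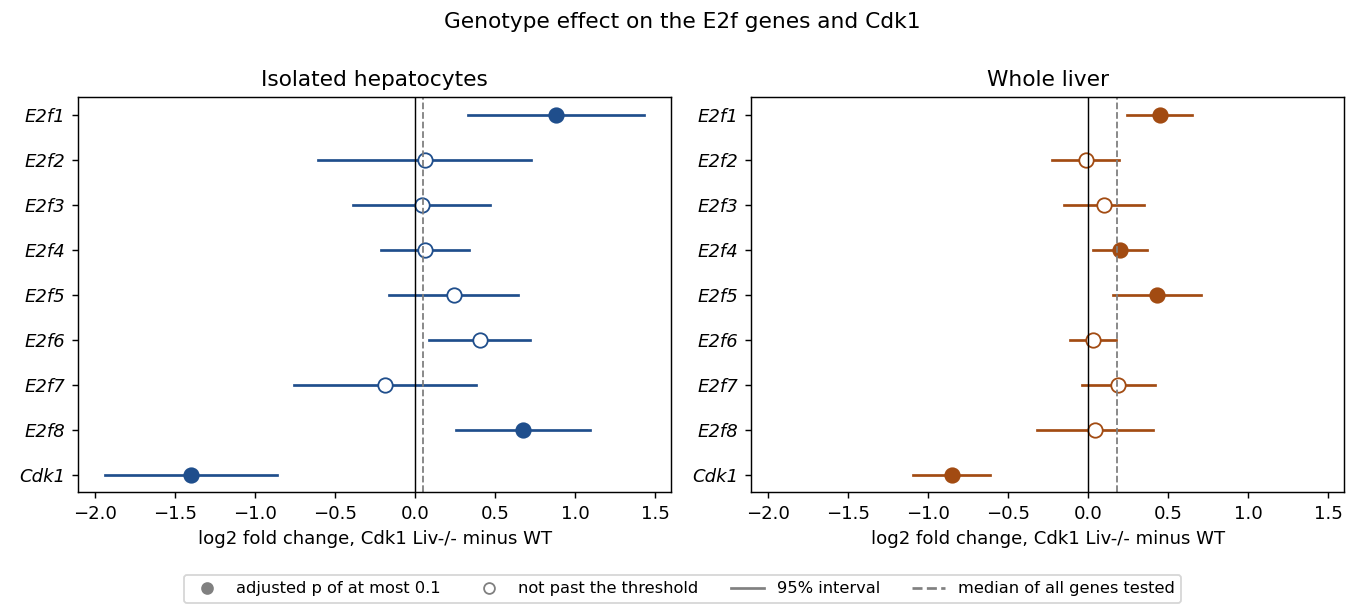
Genotype effect (horizontal axes, log2 fold change of Cdk1 Liv-/- minus WT) for E2f1 to E2f8 and Cdk1 in isolated hepatocytes and in whole liver, with 95% limma intervals, filled points past the threshold and the dashed line at the median of all genes tested. E2f1 and E2f8 pass in hepatocytes and E2f1, E2f4 and E2f5 in whole liver, where E2f4 lies beside the dashed line at 0.18 and turns to -0.013 with size factors.

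Of the activators, only E2f1 passed, and it did so in both compartments. E2f1 (ENSMUSG00000027490, chr2:154559407-154569892, minus strand) encodes the activator best known for switching on S phase genes. Its level in hepatocytes was 2.29, 3.02 and 2.81 FPKM in WT and 6.32, 6.46 and 3.78 FPKM in Cdk1 Liv-/-. Replicates 1 and 2 of Cdk1 Liv-/- were far above the WT libraries and replicate 3 was closer to them, with no overlap. E2f1 rose by 0.88 on the log2 scale (SE 0.23, 95% interval 0.33 to 1.43, n = 3 per group, limma adjusted p = 0.0606), a fold of 1.84. The call is narrow: without WT replicate 3 the difference was 0.91 with an adjusted p of 0.124, and it passed in only 1 of the 6 fits that leave out a library.

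In whole liver E2f1 was at 2.86, 2.87 and 3.05 FPKM in WT and at 3.76, 4.39 and 4.39 FPKM in Cdk1 Liv-/-. All Cdk1 Liv-/- libraries lay above all WT libraries, with a smaller gap than in hepatocytes and a smaller spread. E2f1 rose by 0.45 (SE 0.083, 95% interval 0.24 to 0.65, limma adjusted p = 0.0126). It still passed without the library that holds Xist (0.41, adjusted p = 0.0440), in each of the other fits leaving out a library, and with size factors (0.25, adjusted p = 0.0692).

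E2f2 and E2f3, the other activators, had overlapping genotypes in each compartment. E2f2 (ENSMUSG00000018983, chr4:136172394-136196057, plus strand) was at 1.21, 1.37 and 1.24 FPKM in WT hepatocytes and at 1.19, 2.26 and 0.85 FPKM in Cdk1 Liv-/- hepatocytes. The Cdk1 Liv-/- libraries lay on both sides of WT, with replicate 2 the highest and replicate 3 the lowest of the 12. In whole liver E2f2 ranged from 1.58 to 1.82 FPKM in WT and from 1.53 to 1.76 in Cdk1 Liv-/-. The log2 difference was 0.060 in hepatocytes (95% interval -0.61 to 0.73, limma adjusted p = 0.911) and -0.013 in whole liver (-0.22 to 0.20, adjusted p = 0.919), and the whole liver sign turned to 0.014 when libraries were scaled to the same sum.

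E2f3 (ENSMUSG00000016477, chr13:29906575-29986063, minus strand) was at 3.88, 4.36 and 3.37 FPKM in WT hepatocytes and at 3.53, 4.99 and 3.55 FPKM in Cdk1 Liv-/- hepatocytes. Replicate 2 was the highest of its group in each genotype, and the groups overlapped. Whole liver libraries lay between 2.96 and 3.88 FPKM. The log2 difference was 0.040 in hepatocytes (95% interval -0.39 to 0.47, limma adjusted p = 0.906) and 0.098 in whole liver (-0.15 to 0.35, adjusted p = 0.485), and with size factors the signs turned, to -0.028 and -0.093.

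Since E2F genes are themselves known targets of E2F proteins, the stretch around their start sites is shown for members that carry a searched motif. RefSeq windows, with 250 bases before and 50 after the start in build GRCm38.p6, were found for 6 members, with 8 windows in all. The letters searched on both strands were TTTCGCGC, TTTGGCGC, TTTCCCGC or TTTGCCGC for an E2F site, TTTGAA for a cell cycle homology region (CHR) and CCAAT for a CCAAT box. Of 32851 promoter windows, 2.26% held an E2F site, 17.9% a CHR and 37.4% a CCAAT box. Of the 8 member windows, 3 held an E2F site, 3 a CHR and 5 a CCAAT box. These 8 include the E2f1 window described below and second windows of E2f2 and E2f3. The starts of the second windows lie 8388 bp (E2f2) and 1672 bp (E2f3) into the gene. The second E2f2 window, with 205 bases in an intron, is among those counted for the CHR and the CCAAT box. The first window of E2f2 lies at chr4:136172024-136172323 on the plus strand, outside the annotated gene, and that of E2f3 at chr13:29986014-29986313 on the minus strand, with 250 bases outside the gene and 50 in its first exon. Capitals mark the motifs: a CCAAT box and the E2F site TTTGGCGC in E2f2, and CCAAT boxes, the CHR TTTGAA and the E2F site GCGGGAAA in E2f3, which lies 11 bp before the start. A match describes letters only, and whether any factor binds there was not measured.
E2f2: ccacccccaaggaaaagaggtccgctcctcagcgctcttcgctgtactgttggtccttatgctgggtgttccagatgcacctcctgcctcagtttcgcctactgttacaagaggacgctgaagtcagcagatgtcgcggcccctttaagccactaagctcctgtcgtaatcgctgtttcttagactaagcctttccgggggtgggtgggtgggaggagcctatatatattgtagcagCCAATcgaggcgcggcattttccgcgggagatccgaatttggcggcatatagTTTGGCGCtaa
E2f3: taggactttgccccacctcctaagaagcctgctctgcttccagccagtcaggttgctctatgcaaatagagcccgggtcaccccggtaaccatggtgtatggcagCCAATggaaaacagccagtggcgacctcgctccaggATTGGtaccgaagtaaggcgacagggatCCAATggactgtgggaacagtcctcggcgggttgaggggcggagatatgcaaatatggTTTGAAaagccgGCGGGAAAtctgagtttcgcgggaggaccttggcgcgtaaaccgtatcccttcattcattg

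The start site given for E2f1 lies 466 bp into the annotated gene, and its window lies in an exon, with 188 of its 300 bases coding. The window is therefore not shown, and it says nothing of the sequence before the gene.

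Among the repressors, E2f4 and E2f5 passed in whole liver and not in hepatocytes. E2f4 (ENSMUSG00000014859, chr8:105297663-105305370, plus strand) encodes the main partner of pocket proteins in resting cells. Its level in hepatocytes was 9.11, 7.88 and 9.83 FPKM in WT and 8.92, 9.98 and 9.08 FPKM in Cdk1 Liv-/-, and the groups overlapped. In whole liver it was 10.64, 11.19 and 11.06 FPKM in WT and 12.06, 13.81 and 12.18 FPKM in Cdk1 Liv-/-, with every Cdk1 Liv-/- library above WT. E2f4 rose there by 0.20 (SE 0.069, 95% interval 0.029 to 0.37, limma adjusted p = 0.0719), which is close to the shift of all genes and turned to -0.013 with size factors. The call was lost without the library that holds Xist (0.23, adjusted p = 0.104) and in 5 of the 6 fits leaving out a library. The hepatocyte difference was 0.062 (95% interval -0.21 to 0.34, adjusted p = 0.760) and also turned to -0.011 with size factors.

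E2f5 (ENSMUSG00000027552, chr3:14578641-14606309, plus strand), the second repressor that binds pocket proteins, had whole liver levels of 3.11, 3.23 and 3.42 FPKM in WT and 3.95, 4.53 and 5.31 FPKM in Cdk1 Liv-/-. The groups were apart, and the highest value came from the library that holds Xist. E2f5 rose by 0.43 (SE 0.11, 95% interval 0.16 to 0.71, limma adjusted p = 0.0318), and by 0.33 without that library (adjusted p = 0.0653). With size factors it was 0.24 and did not pass (adjusted p = 0.172), nor did it without WT replicate 1 (0.41, adjusted p = 0.104). In hepatocytes E2f5 was at 2.85, 2.90 and 3.48 FPKM in WT and at 3.37, 4.56 and 3.33 FPKM in Cdk1 Liv-/-. These groups overlapped, with a log2 difference of 0.24 (95% interval -0.16 to 0.65, adjusted p = 0.387).

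E2f6 (ENSMUSG00000057469, chr12:16810963-16839742, plus strand), which represses with Polycomb proteins and without pocket proteins, came next to the threshold in hepatocytes. It was at 4, 5.22 and 4.21 FPKM in WT and at 6.16, 6.04 and 5.94 FPKM in Cdk1 Liv-/-. The Cdk1 Liv-/- libraries had an SD of 0.110 FPKM and lay above all WT libraries, of which replicate 2 was the closest. The log2 difference was 0.40 (SE 0.13, 95% interval 0.089 to 0.72, limma adjusted p = 0.103), just short of the threshold. It passed under 6 of 16 alternatives, with adjusted p from 0.0133 to 0.240 over all of them, among them equal sums (0.42, adjusted p = 0.0990) and, as the only fit leaving out a library, that without WT replicate 2 (0.51, adjusted p = 0.0790).

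Whole liver E2f6 was at 5.26, 5.47 and 5.40 FPKM in WT and at 5.33, 5.72 and 5.49 FPKM in Cdk1 Liv-/-, with overlap. The log2 difference was 0.033 (95% interval -0.11 to 0.18, limma adjusted p = 0.692). With size factors the direction turned and E2f6 passed as lower in Cdk1 Liv-/- (-0.17, adjusted p = 0.0639). The promoter window of E2f6 held none of the 3 motifs.

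Of the atypical members, E2f8 rose in hepatocytes and E2f7 did not pass in either compartment. E2f8 (ENSMUSG00000046179, chr7:48866429-48881596, minus strand) was at 3.39, 3.01 and 2.59 FPKM in WT hepatocytes and at 4.48, 6.24 and 4.60 FPKM in Cdk1 Liv-/- hepatocytes. Every Cdk1 Liv-/- library lay above every WT library, with replicate 2 the highest of the 12. E2f8 rose by 0.67 (SE 0.17, 95% interval 0.25 to 1.09, limma adjusted p = 0.0602), a fold of 1.59. Without WT replicate 3 it was 0.59 and did not pass (adjusted p = 0.139), and it passed in 1 of the 6 fits leaving out a library.

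Whole liver E2f8 was at 2.85, 2.90 and 2.75 FPKM in WT and at 3.69, 2.34 and 2.91 FPKM in Cdk1 Liv-/-. The Cdk1 Liv-/- libraries lay on both sides of a narrow WT group. The log2 difference was 0.044 (95% interval -0.32 to 0.41, limma adjusted p = 0.838) and turned to -0.14 with size factors.

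E2f7 (ENSMUSG00000020185, chr10:110745439-110787384, plus strand), which forms dimers with itself or with E2F8, had the lowest level of the family. In hepatocytes it was at 0.60, 0.58 and 0.88 FPKM in WT and at 0.42, 0.93 and 0.34 FPKM in Cdk1 Liv-/-, with overlap and replicate 2 of Cdk1 Liv-/- the highest. In whole liver it was at 0.40, 0.51 and 0.58 FPKM in WT and at 0.64, 0.67 and 0.59 FPKM in Cdk1 Liv-/-, with no overlap and a smallest gap of 1 step of the second decimal. The log2 difference was -0.19 in hepatocytes (95% interval -0.76 to 0.38, limma adjusted p = 0.635) and 0.19 in whole liver (-0.040 to 0.42, adjusted p = 0.164). Depth limits this gene most: if all reads came from its longest annotated transcript, 64 to 225 reads per library lie behind E2f7, against 306 to 686 for E2f1 and 402 to 894 for E2f8.

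The windows of both atypical members also carry searched motifs and are shown here. E2f8 has a window at chr7:48881547-48881846 on the minus strand and E2f7 at chr10:110745189-110745488 on the plus strand, each with 250 bases outside the gene and 50 in its first exon. In E2f8, capitals mark a CCAAT box read on the other strand (ATTGG) and a CHR (TTCAAA) 20 bp before the start. In E2f7 they mark an E2F site (GCGGGAAA) 198 bp before the start and 2 CCAAT boxes. No E2F site of the letters searched was in the E2f8 window, and no CHR in the E2f7 window. A CHR also lies 23 bp before the start of E2f3, which did not pass in either compartment. Any link between these motifs and the levels was not tested.
E2f8: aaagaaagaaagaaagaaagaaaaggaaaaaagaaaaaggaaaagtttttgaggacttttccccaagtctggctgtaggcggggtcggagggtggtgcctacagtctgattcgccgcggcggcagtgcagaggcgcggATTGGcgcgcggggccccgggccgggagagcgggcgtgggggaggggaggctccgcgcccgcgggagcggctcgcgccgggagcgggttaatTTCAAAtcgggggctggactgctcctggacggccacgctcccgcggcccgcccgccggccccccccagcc
E2f7: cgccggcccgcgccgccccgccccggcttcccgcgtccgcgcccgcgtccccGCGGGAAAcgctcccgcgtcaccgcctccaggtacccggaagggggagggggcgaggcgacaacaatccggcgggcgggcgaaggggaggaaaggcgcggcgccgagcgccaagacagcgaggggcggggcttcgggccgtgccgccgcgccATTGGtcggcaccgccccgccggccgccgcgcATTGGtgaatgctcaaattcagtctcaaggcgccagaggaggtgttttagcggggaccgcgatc

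Set against each other by compartment, the WT libraries showed little difference in the E2f genes. WT hepatocytes minus WT whole liver gave 0 of 8 E2f genes past the threshold in limma, where 1.52% of all genes passed in either direction. At an unadjusted p under 0.05 there were 2, E2f2 (-0.30, adjusted p = 0.230) and E2f4 (-0.29, adjusted p = 0.202), and the two-sample test with q-values also gave 0. E2f4 passed as lower in hepatocytes without WT hepatocyte replicate 3 (-0.35, adjusted p = 0.0744). E2f1 had a difference of -0.10 (adjusted p = 0.657) that turned to 0.0071 with size factors, and E2f8 one of 0.063 (adjusted p = 0.785). Sinusoidal endothelial markers also showed little, with a median difference of 0.022 and 0 of 5 passing. The other marker lists of cells that are not hepatocytes had medians from -1.32 (B cells) to -0.51 (Kupffer cells). WT hepatocyte libraries thus held RNA of other cells, and which cells carry the E2f genes was not tested.

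In Cdk1 Liv-/- mice the compartments were further apart, also in sinusoidal endothelial markers, of which 5 of 5 were lower in hepatocytes (median -1.54). E2f8 was higher and E2f4 lower in hepatocytes than in whole liver, 1 of 8 in each direction, where 8.86% of all genes were higher and 35.9% lower and the median of all genes was -0.19. The E2f8 difference was 0.69 (SE 0.19, limma adjusted p = 0.0360) and, relative to that median, 0.88. Without whole liver replicate 3, which holds Xist, it was 0.69 with an adjusted p of 0.102. The E2f4 difference was -0.42 (SE 0.095, adjusted p = 0.0180) and -0.45 without that library (adjusted p = 0.0527), and it did not pass with size factors (-0.16, adjusted p = 0.184). With size factors E2f1 (0.58, adjusted p = 0.0787), E2f3 (0.45, adjusted p = 0.0770) and E2f6 (0.37, adjusted p = 0.0206) also passed as higher in hepatocytes.

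The test of the difference itself, the genotype effect in hepatocytes minus that in whole liver, passed for 0 of the 8 E2f genes in limma, where 9.85% of all genes passed in either direction. At an unadjusted p under 0.05 there were 2. These were E2f8, with 0.63 (SE 0.23, 95% interval 0.12 to 1.14, adjusted p = 0.136), and E2f6, with 0.37 (SE 0.14, 0.067 to 0.67, adjusted p = 0.139). E2f1 had a difference of 0.43 with an interval from -0.12 to 0.98 (adjusted p = 0.320). The two-sample test has no value for this difference. So the rise of E2f8 in hepatocytes and that of E2f5 in whole liver (interaction -0.19, adjusted p = 0.606) are not shown to be particular to a compartment. Leaving out 1 library let a gene pass in 3 cases: E2f6 without WT hepatocyte replicate 2 (0.47, adjusted p = 0.0318), E2f1 without Cdk1 Liv-/- hepatocyte replicate 3 (0.66, adjusted p = 0.0811) and E2f8 without Cdk1 Liv-/- whole liver replicate 1 (0.77, adjusted p = 0.0943). Without both libraries that stand apart, a choice made after seeing the data, the count stayed at 0.

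Fixed lists of the genes around the family were described by their counts and medians. Beside these stand the shares of all genes tested, of which 12.1% rose and 6.61% fell in hepatocytes (median 0.049) and 38.0% rose and 7.53% fell in whole liver (median 0.18). DP partners and pocket proteins, which give E2F proteins their DNA binding and their block, had 2 of 5 genes higher and 0 lower in hepatocytes, with a median of 0.43. Tfdp1, the main DP partner, rose by 0.70 (limma adjusted p = 0.0186), and Tfdp2 by 0.58 (adjusted p = 0.0941, and 0.111 with size factors). In whole liver Tfdp1 rose by 0.43 (adjusted p = 0.0101) and the pocket protein gene Rbl2 fell by 0.42 (adjusted p = 0.0145), with a list median of 0.24. Rb1 had -0.28 in hepatocytes (adjusted p = 0.260) and 0.24 in whole liver (adjusted p = 0.142).

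The MuvB core with B-Myb and FoxM1, the machinery that reads CHR elements, had 2 of 7 genes higher and 0 lower in each compartment, with medians of 0.50 in hepatocytes and 0.20 in whole liver. In hepatocytes these were Lin54 (0.75, limma adjusted p = 0.0450), the subunit that binds the CHR, and Lin52 (0.50, adjusted p = 0.0686). In whole liver they were Lin37 (0.39, adjusted p = 0.0193) and Foxm1 (0.32, adjusted p = 0.0656), and with size factors 0 of 7 passed there. Foxm1 had the largest difference of the list in hepatocytes (0.93) and did not pass (adjusted p = 0.145).

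Upstream of the pocket proteins, G1 cyclins and kinases had 1 of 8 genes higher and 1 lower in hepatocytes, with a median of 0.0088. Ccnd1, the cyclin D that phosphorylates Rb with its kinase, rose by 0.72 (limma adjusted p = 0.0998, and 0.132 with size factors), and Ccnd2 fell by 0.97 (adjusted p = 0.0941). Whole liver had 5 of 8 higher and 0 lower, with a median of 0.25: Ccnd1 (1.12, adjusted p = 0.0668), Ccne1 (0.73, adjusted p = 0.00864), Cdk4 (0.46, adjusted p = 0.0464), Ccnd3 (0.28, adjusted p = 0.0740) and Cdk6 (0.21, adjusted p = 0.0433). With size factors, Ccne1 was the only one of these 5 past the threshold (0.52, adjusted p = 0.0186), and calls in the other direction appeared: Ccne2 as lower in whole liver (-0.29, adjusted p = 0.0538) and Cdk4 as lower in hepatocytes (-0.52, adjusted p = 0.0554).

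CDK inhibitors, which keep pocket proteins active, had 2 of 6 tested genes higher and 1 lower in hepatocytes and 3 higher and 1 lower in whole liver, with medians of 0.40 and 0.31. Cdkn1a (p21) rose by 1.05 in hepatocytes (limma adjusted p = 0.0147) and by 2.14 in whole liver (adjusted p = 0.00875). Cdkn1c (p57) fell by 1.52 (adjusted p = 0.0207) and by 0.67 (adjusted p = 0.0676). Cdkn2b (p15) rose by 0.43 (adjusted p = 0.0269) and by 1.12 (adjusted p = 0.00109) from means under 0.1 FPKM in WT, and Cdkn1b (p27) rose by 0.34 in whole liver (adjusted p = 0.0495) but did not pass with size factors (0.13, adjusted p = 0.394). The remaining gene of the list, Cdkn2a, was too low to be tested.

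Of the 3 genes for E2F protein turnover, Ccnf, a cyclin of a ubiquitin ligase, rose in hepatocytes (0.84, limma adjusted p = 0.0762), and Ccnf (0.64, adjusted p = 0.0315) and Fzr1 (0.35, adjusted p = 0.0553) rose in whole liver. With size factors neither passed there (Ccnf 0.43, adjusted p = 0.118, and Fzr1 0.14, adjusted p = 0.331). The Polycomb complex that E2F6 joins had 0 of 9 genes past the threshold in hepatocytes in limma, 2 at an unadjusted p under 0.05 and a median of 0.16. In whole liver, where 38.0% of all genes rose with a median of 0.18, 8 of 9, all but Mga, rose, with a median of 0.32, led by Rnf2 (0.47, adjusted p = 0.0110) and Max (0.42, adjusted p = 0.0109), and with size factors 2 of 9 did. E2f6 itself did not pass in whole liver, as given above.

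Without WT hepatocyte replicate 3, the hepatocyte calls left in these lists were 1 of 5 DP partners and pocket proteins (Tfdp1) and 3 of 6 CDK inhibitors (2 higher, 1 lower). The other lists had 0 calls in that fit, so Tfdp2, Lin54 (adjusted p = 0.101), Lin52, Ccnd1, Ccnd2 and Ccnf were lost, as E2f1 and E2f8 were. Without Cdk1 Liv-/- whole liver replicate 3, DP partners and pocket proteins had 2 genes higher, with Rb1 added (0.35, adjusted p = 0.0594), and 1 lower, the MuvB list 1 higher, G1 cyclins and kinases 2 higher, CDK inhibitors 3 higher and 1 lower, turnover 1 higher and Polycomb 6 higher. There Foxm1, Ccnd1, Ccnd3, Cdk6 and Fzr1 no longer passed.

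**Figure D3:**
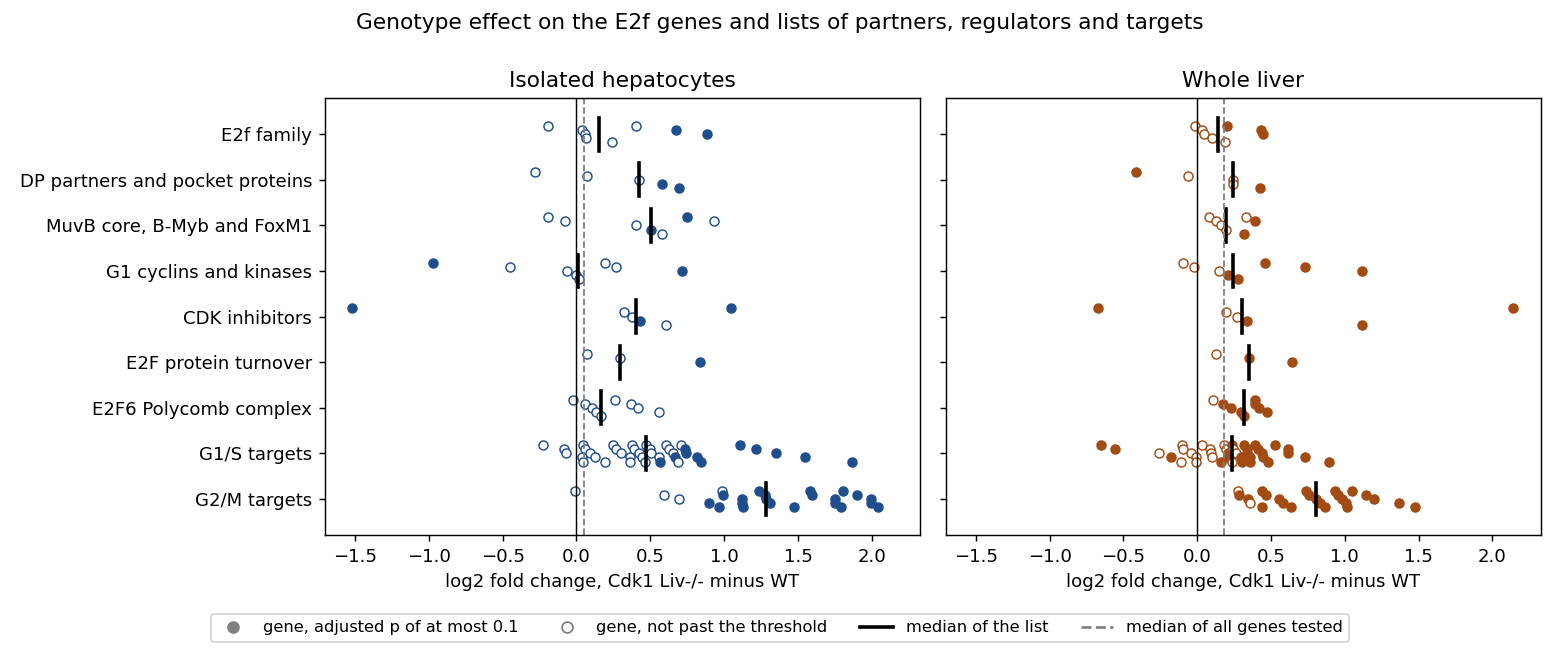
Genotype effect (horizontal axes, log2 fold change of Cdk1 Liv-/- minus WT) for each tested gene of the E2f family and of the lists of partners, regulators and targets, with the list median as a black bar and the median of all genes tested as a dashed line. The G2/M list lies farthest from the dashed line in each compartment, with medians of 1.28 in hepatocytes and 0.81 in whole liver.

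Known targets of E2F proteins were read as 2 lists, of which neither holds an E2f gene. Among 40 G1/S targets, genes for DNA synthesis that E2F proteins drive, 11 rose and 0 fell in hepatocytes (8 rose with size factors, 7 without WT replicate 3 and 6 to 19 over the fits leaving out a library), with a median of 0.47 against 0.049 for all genes. Among 25 G2/M targets, mitotic genes controlled through CHR elements, 21 rose and 0 fell (17 rose without WT replicate 3, 13 to 23 over the fits leaving out a library, lowest without WT replicate 1, and 10 with the replicate number as a block), with a median of 1.28. Among the largest G1/S differences were those of Rrm2 (1.55, limma adjusted p = 0.00917), a subunit of ribonucleotide reductase, and Brca1 (1.35, adjusted p = 0.0105). The smallest were those of Tyms (-0.072), Slbp (-0.085) and Tk1 (-0.23), and none of these 3 passed. The G2/M list was led by Ccnb1 (2.04, adjusted p = 0.0121), the cyclin partner of Cdk1, Ube2c (2.00, adjusted p = 0.0142) and Hmmr (2.00, adjusted p = 0.0111), and ended with Mki67 (0.69), Aurkb (0.59) and Kif23 (-0.0070), which did not pass.

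In whole liver 21 G1/S targets rose and 3 fell, with a median of 0.24 that is near the 0.18 of all genes. With size factors the counts were 7 and 8, with a median of 0.035, and without the library that holds Xist 11 and 2. Ccne1 (0.73, limma adjusted p = 0.00864) and Brca1 (0.62, adjusted p = 0.00748) were among the largest. Mcm10 (-0.56, adjusted p = 0.0251), a replication initiation factor, and Tk1 (-0.65, adjusted p = 0.00524), thymidine kinase, fell, and Prim1 (-0.26, adjusted p = 0.111) did not pass. For G2/M targets 23 rose and 0 fell, with a median of 0.81, and 17 rose with size factors and 19 without the library that holds Xist, when Kif23 and Mki67 did not pass. Ube2c (1.48, adjusted p = 0.00510), Ccnb1 (1.37, adjusted p = 0.00568) and Prc1 (1.196, adjusted p = 0.00288) had the largest values, and Kif23 (0.34, adjusted p = 0.0634), Mki67 (0.28, adjusted p = 0.0946) and Birc5 (0.28, adjusted p = 0.198) the smallest.

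In hepatocytes, the Cdk1 Liv-/- libraries with the most E2f1 also had the highest target lists. The mean log2 level of the G1/S list, relative to the WT mean of the compartment, was 0.59, 0.82 and 0.14 in Cdk1 Liv-/- hepatocyte replicates 1 to 3, in which E2f1 was at 6.32, 6.46 and 3.78 FPKM. That of the G2/M list was 1.45, 1.76 and 0.79. Replicate 3 was thus the lowest of its group for E2f1 and for both lists, and also for E2f2, E2f5, E2f6, E2f7 and Cdk1. In Cdk1 Liv-/- whole liver the G1/S list was at 0.16, 0.19 and 0.25 and the G2/M list at 0.76, 0.57 and 1.01, with E2f1 at 3.76, 4.39 and 4.39 FPKM. In the 6 WT libraries the G2/M list was at most 0.16. Leaving out Cdk1 Liv-/- hepatocyte replicate 3 raised the G1/S count in hepatocytes from 11 to 19.

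**Figure D4:**
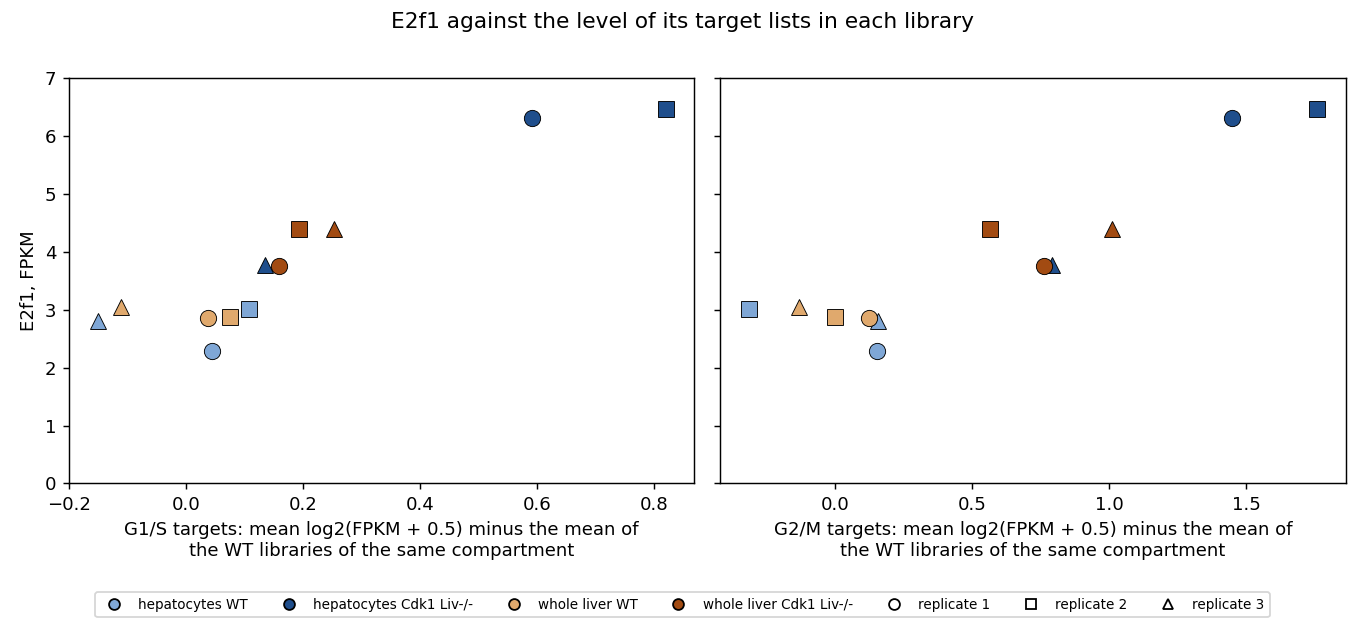
E2f1 in FPKM (vertical axis) against the mean log2 level of the G1/S targets (left) and G2/M targets (right), relative to the WT mean of the same compartment, in the 12 libraries. Cdk1 Liv-/- hepatocyte replicates 1 and 2 stand at the upper right, and replicate 3 lies beside the Cdk1 Liv-/- whole liver libraries.

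Some genes followed a member closely over the 12 libraries, measured as Pearson's r of log2(FPKM + 0.5) among 12282 candidates. These libraries share compartment and genotype, so r mixes differences between groups with those within them and is given as a description. Closest to E2f1 were 4930579G24Rik (0.972), Rpa2 (0.970), a subunit of the protein that coats single-stranded DNA, and Spg7 (0.969). With the Cdk1 Liv-/- hepatocytes left out, r for Rpa2 was 0.937. E2f8 was most like Pard3 (0.961), Ntrk2 (0.960) and Aco1 (0.954), and without the Cdk1 Liv-/- hepatocytes these stood at 0.825, 0.736 and 0.786. E2f4 was most like Ehmt2 (0.979), BC037034 (0.979) and Rpl41 (0.973). E2f5 came closest to Afp (0.950), a serum protein of the fetal liver, Bex1 (0.940) and Pprc1 (0.938).

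E2f3 was most like Cpsf1 (0.942), Dag1 (0.906) and Dvl3 (0.878), and E2f2 most like Lmnb1 (0.890), Prkaca (0.888) and Alyref (0.886). For E2f6 the closest were Grsf1 (0.886), Fbxl8 (0.870) and Pdia3 (0.866), and for E2f7 Lonrf1 (0.859), Galnt1 (0.853) and Ptk2 (0.821). Among the members themselves, r was highest between E2f1 and E2f6 (0.768) and between E2f3 and E2f8 (0.701), and lowest between E2f3 and E2f4 (-0.532).

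Markers of liver cell types moved with genotype and compartment in the same libraries, and their part in the E2f differences was not tested. Fewer cells of a type and less RNA per cell cannot be told apart in these bulk samples. Hepatocyte markers, of which Alb was the most abundant, summed to 75319, 83525 and 79550 FPKM in WT hepatocytes and to 51887, 53803 and 49420 FPKM in Cdk1 Liv-/- hepatocytes. In whole liver they summed to 77833, 76093 and 79318 FPKM in WT and to 60446, 54662 and 59109 FPKM in Cdk1 Liv-/-. Of 6 genes, 2 rose and 2 fell in hepatocytes and 0 rose and 3 fell in whole liver in limma. Beside these and the marker counts below stand the shares of all genes tested. In hepatocytes 12.1% rose and 6.61% fell, and in whole liver 38.0% rose and 7.53% fell. No gene of the 10 marker lists was at 0 in all libraries.

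Sinusoidal endothelial markers, led by Clec4g, were lower in Cdk1 Liv-/- hepatocytes than in WT hepatocytes. They summed to 83.0, 54.9 and 145 FPKM in WT hepatocytes and to 38.9, 24.7 and 27.9 FPKM in Cdk1 Liv-/- hepatocytes, and all 5 genes fell. In whole liver they summed to 69.4, 82.7 and 98.1 FPKM in WT and 87.4, 103 and 86.7 FPKM in Cdk1 Liv-/-. There 1 of 5 rose, against 38.0% of all genes. Erythroid markers, led by Hbb-bs and with 12 of 13 symbols found, summed to 149, 110 and 586 FPKM and to 73.3, 101 and 25.3 FPKM in WT and Cdk1 Liv-/- hepatocytes, and 2 of 11 tested genes fell. Whole liver erythroid sums were far higher, with 1108, 1233 and 2174 FPKM in WT and 1168, 1772 and 1459 FPKM in Cdk1 Liv-/-, and 3 of 11 fell.

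Kupffer cell and macrophage markers, led by Cd5l, summed to 180, 90.5 and 309 FPKM in WT hepatocytes and 119, 83.0 and 75.7 FPKM in Cdk1 Liv-/- hepatocytes, where 1 of 6 fell. Their whole liver sums were 245, 279 and 285 FPKM in WT and 332, 459 and 354 FPKM in Cdk1 Liv-/-. There 2 of 6 rose, against 38.0% of all genes. Stellate cell and fibroblast markers, led by Dcn, summed to 132, 85.4 and 233 FPKM in WT hepatocytes and 81.5, 76.5 and 63.2 FPKM in Cdk1 Liv-/- hepatocytes, where 1 of 5 fell. Every Cdk1 Liv-/- whole liver library was above WT for these cells, with 240, 241 and 249 FPKM in WT and 405, 399 and 415 FPKM in Cdk1 Liv-/-, and 3 of 5 rose. Whether these cells have a part in the whole liver rises of E2f1, E2f4 and E2f5 was not tested.

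Monocyte markers, led by Plac8, summed to 11.2, 7.17 and 17.6 FPKM in WT hepatocytes and 11.8, 11.3 and 13.6 FPKM in Cdk1 Liv-/- hepatocytes, where 1 of 5 rose, and to 25.6, 25.3 and 23.8 FPKM against 61.9, 65.5 and 58.5 FPKM in whole liver, where 4 of 5 rose. Neutrophil markers, led by S100a9, summed to 14.1, 11.9 and 49.9 FPKM and to 20.5, 9.62 and 19.5 FPKM in WT and Cdk1 Liv-/- hepatocytes, with 0 of 7 passing in limma and 0 at an unadjusted p under 0.05. In whole liver they summed to 72.3, 44.6 and 69.0 FPKM in WT and to 86.2, 306 and 250 FPKM in Cdk1 Liv-/-, and 5 of 7 rose. These myeloid lists were highest in Cdk1 Liv-/- whole liver, and any link to the E2f genes was not tested.

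B cell markers, led by Cd79b, summed to 3.04, 1.93 and 7.13 FPKM in hepatocytes of WT and to 1.38, 0.83 and 0.71 FPKM in those of Cdk1 Liv-/-, where 2 of 6 fell. For whole liver the sums were 14.9, 11.8 and 15.0 FPKM (WT) and 5.32, 12.3 and 9.24 FPKM (Cdk1 Liv-/-), where 3 of 6 fell. T and NK cell markers, led by Cd3g, summed to 1.97, 1.79 and 2.68 FPKM, 1.11, 0.67 and 0.84 FPKM, 5.64, 8.33 and 4.29 FPKM, and 4.89, 5.96 and 5.82 FPKM in the same order of groups, where 2 of 5 fell in hepatocytes and 0 changed in whole liver in limma (0 at an unadjusted p under 0.05). Cholangiocyte markers, led by Sox9, summed to 1.33, 1.14 and 1.41 FPKM, 3.82, 4.13 and 4.50 FPKM, 4.53, 5.11 and 3.38 FPKM, and 20.98, 8.15 and 11.8 FPKM in that order, and 3 of 4 rose in each compartment. In Cdk1 Liv-/- hepatocytes these rises were at sums under 5 FPKM.

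Some marker counts moved with the scaling. With size factors, whole liver had 1 of 4 cholangiocyte, 1 of 6 Kupffer cell, 0 of 5 endothelial and 4 of 7 neutrophil genes higher and 4 of 6 hepatocyte genes lower, and hepatocytes had 4 erythroid and 3 Kupffer cell genes lower and 1 hepatocyte gene higher. Without WT hepatocyte replicate 3, the calls in hepatocytes were 4 of 5 endothelial, 1 erythroid, 0 Kupffer cell, 0 stellate cell, 2 B cell, 1 T and NK cell and 2 hepatocyte genes lower and 2 cholangiocyte, 1 monocyte, 0 neutrophil and 0 hepatocyte genes higher. Without the whole liver library that holds Xist, 4 monocyte, 3 stellate cell, 1 Kupffer cell, 1 neutrophil, 1 cholangiocyte and 0 endothelial genes were higher and 3 hepatocyte, 2 erythroid, 1 B cell and 0 T and NK cell genes lower there.

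**Figure D5:**
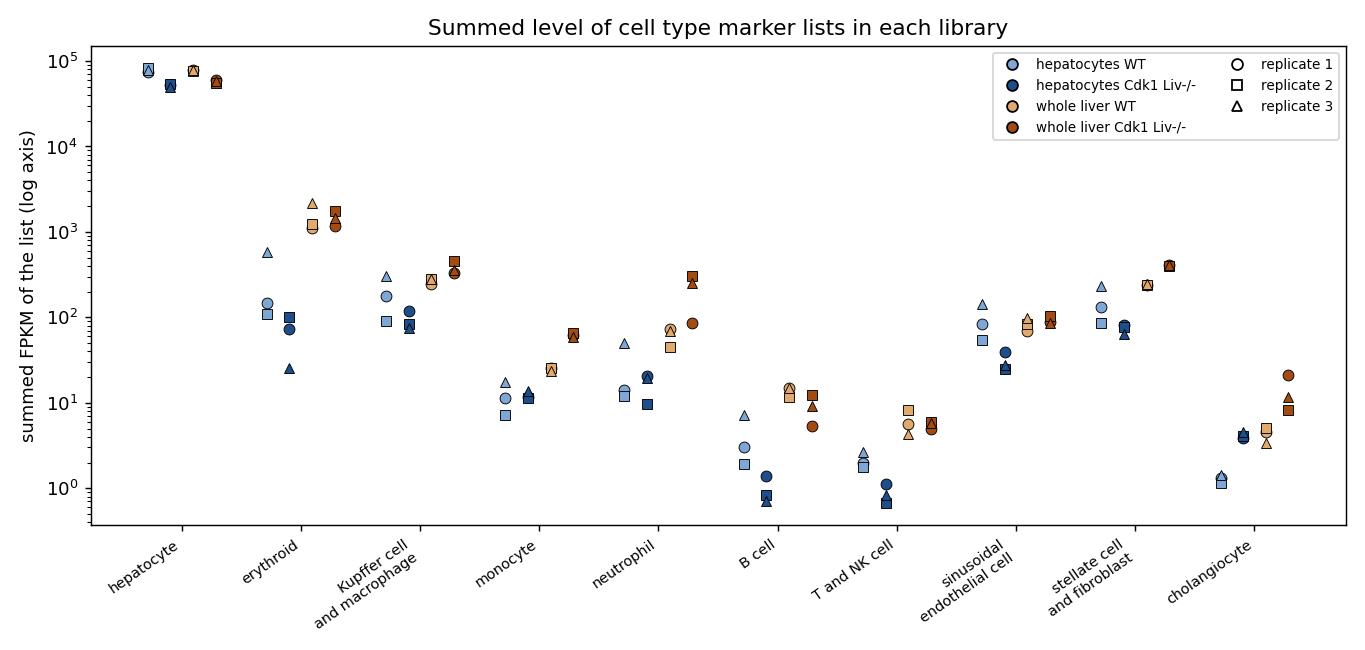
Summed FPKM of each cell type marker list (vertical log axis) in the 12 libraries, coloured by group, with replicates 1 to 3 as circle, square and triangle. WT hepatocyte replicate 3 lies above the other WT hepatocyte libraries for endothelial cells (145 FPKM) and erythroid cells (586 FPKM), and Cdk1 Liv-/- whole liver lies above WT for stellate cells and monocytes.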

How the data were processed

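The authors aligned single-end 75 bp reads of stranded TruSeq polyA libraries to mm10 with STAR and quantified genes with RSEM 1.2.31, per the methods and the submitters' processing notes. They deposited FPKM values, 1 column per library, with no normalization between libraries. Which annotation release they used is not given in the sources used here. By the labels there are 3 separate samples per group and the methods speak of biological replicates, so p-values measure the spread between these samples.

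From the deposited FPKM, log2(FPKM + 0.5) was tested with limma 3.58.1 (moderated test with trend, two-sided) in R 4.3.3 for the 17386 of 28019 genes above 0 whose mean across libraries reached 0.1 FPKM. The Benjamini-Hochberg adjustment covered all genes tested, with a threshold of 0.1. Each comparison used its own 6 libraries, and the interaction used all 12. The study's methods use a two-sample test with q-values, and limma took its place because of 3 libraries per group. The genes named are the E2f genes, Cdk1, the fixed lists of partners and regulators, the 3 largest and 3 smallest differences of each target list, the 3 genes most like each member and the most abundant gene of each marker list; some genes that this rule selects are not reported here. Genes on 2 lists count under both, and 170 of 171 list genes were found. The members and lists were chosen with earlier results of these data known. Read counts were not used here, so depth was estimated from the steps of low FPKM values: 1 FPKM on 1 kb of transcript corresponds to 34.9 to 49.9 reads per library. The genes used had transcripts of 300 to 900 bp and at most 0.5 FPKM, 1161 to 1510 genes per library. Of these, 64.0 to 71.5% lay at whole steps at a tolerance of 2 decimals, against a median of 17.8 to 21.5% for other step sizes. Gene positions and transcript lengths came from GENCODE M21 and promoter windows from RefSeq (GRCm38.p6). The computation was tested on simulated data. Alternatives were a pseudocount of 0.1 or 1, no filter or a mean FPKM of at least 1, median-ratio size factors, equal sums, the replicate number as a block, a spread shared by all 12 libraries, a log2 difference of at least 1, the two-sample test, and leaving out each library.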

Additional observations from a re-analysis of the deposited data

Results flagged for a closer look

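For 5 of the genes named above from the lists around the E2f family, the genotype effect in hepatocytes differed from that in whole liver. The test was the interaction in limma over all 12 libraries, which 9.85% of all genes tested passed in either direction. Over the whole lists it passed for 6 of 40 G1/S targets, 1 of 25 G2/M targets, 1 of 8 G1 cyclins and kinases and 1 of 6 CDK inhibitors. The other lists around the family had 0 such genes. The difference was positive, with the larger value in hepatocytes, for Rrm2 (1.25, adjusted p = 0.0431), Mcm10 (0.81, adjusted p = 0.0521) and Brca1 (0.73, adjusted p = 0.0826), all G1/S targets. It was negative for Cdk4 (-0.91, adjusted p = 0.0544) and Cdkn2b (-0.69, adjusted p = 0.0406). Mcm10 fell in whole liver (-0.56, adjusted p = 0.0251) and did not pass in hepatocytes (0.25, adjusted p = 0.222), while Cdk4 rose in whole liver (0.46, adjusted p = 0.0464) and did not pass in hepatocytes (-0.45, adjusted p = 0.102). No E2f gene was among them.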

How the results depend on the processing

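Of 675 values of E2f genes under alternative settings, 598 kept their direction and their side of the threshold, 33 lost and 18 gained a call, and 26 changed sign, of which 2 involved a call. Most of these values belong to comparisons without a call. Of 16 alternatives each, E2f1 and E2f8 in hepatocytes passed in 8. In whole liver E2f4 passed in 8, E2f5 in 13 and E2f1 in 15. Between Cdk1 Liv-/- compartments E2f8 passed in 12 and E2f4 in 14. Where a cause is not given below, the cause was not tested.

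In hepatocytes the count of 2 E2f genes became 0 with no filter on low values (more genes tested), 0 with a log2 difference of at least 1 and 0 with the replicate block, 3 (with E2f6) with a pseudocount of 0.1, a mean FPKM of 1 or more, equal sums, a shared spread or the two-sample test, and 0 to 1 with a library left out: 0 on omitting WT replicate 1, WT replicate 3 or Cdk1 Liv-/- replicate 2, and 1 on omitting WT replicate 2 (E2f6), Cdk1 Liv-/- replicate 1 (E2f8) or replicate 3 (E2f1). With a library left out, the adjusted p of E2f1 ran from 0.0268 to 0.167 and that of E2f8 from 0.0975 to 0.139. In whole liver the count of 3 became 0 with a log2 difference of at least 1 and 1 to 3 with a library left out, with 1 (E2f1) without WT replicate 1. Size factors gave 2 there: E2f1 was kept, E2f4 and E2f5 were lost, and E2f6 was a new call in the other direction. A shared spread gave 2 (E2f4 lost) and the two-sample test 4 (with E2f7). Of all whole liver calls, 83.5% were rises as deposited and 52.2% with size factors. WT hepatocytes against WT whole liver went from 0 to 1 (E2f4) without WT hepatocyte replicate 3, a range of 0 to 1. The count of 2 between Cdk1 Liv-/- compartments became 4 with size factors, 3 (with E2f6) with the two-sample test, 1 with the block and 0 with a log2 difference of at least 1, and ran from 1 to 4 with a library left out: 4 without Cdk1 Liv-/- hepatocyte replicate 2 and 1 without whole liver replicate 2 or 3. The interaction count of 0 ran from 0 to 1.

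G1/S targets higher in hepatocytes, 11, became 7 with no filter, 22 with a shared spread and 5 with a log2 difference of at least 1, and ran from 6 (without WT replicate 1 or Cdk1 Liv-/- replicate 1) to 19 (without Cdk1 Liv-/- replicate 3). G2/M targets there, 21, ran from 13 (without WT replicate 1) to 23. In whole liver the 21 G1/S targets became 7 with size factors, 7 with a shared spread and 0 with a log2 difference of at least 1, and ran from 11 (without WT replicate 3 or Cdk1 Liv-/- replicate 3) to 19, with 13 without WT replicate 1 and 14 without Cdk1 Liv-/- replicate 2. The 3 lower G1/S targets became 8 with size factors and 0 with a log2 difference of at least 1. The 23 G2/M targets became 7 with a log2 difference of at least 1.

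Replicate numbers did not pair the libraries: over 18 same-numbered pairs, the correlation of deviations from group means ran from -0.317 to 0.239, and 2 exceeded 0.1. With the replicate block, the hepatocyte count was 0 (E2f1 adjusted p = 0.135, E2f8 adjusted p = 0.143), that between Cdk1 Liv-/- compartments 1, G2/M targets in hepatocytes 10 and G1/S targets in whole liver 12. No other count of E2f genes changed with the block.

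Signs changed with size factors for E2f3 (-0.028) and E2f4 (-0.011) in hepatocytes, for E2f3 (-0.093), E2f4 (-0.013), E2f6 (-0.17) and E2f8 (-0.14) in whole liver, for E2f1 (0.0071) and E2f5 (0.037) between WT compartments, for E2f7 (0.012) between Cdk1 Liv-/- compartments, and for E2f3 (0.065) and E2f4 (0.0029) in the interaction. With equal sums E2f2 turned in whole liver (0.014). With a library left out, values that changed sign ran from -0.23 to 0.29 (E2f2), -0.11 to 0.12 (E2f3) and -0.022 to 0.13 (E2f4) in hepatocytes, from -0.047 to 0.032 (E2f2) and -0.099 to 0.18 (E2f8) in whole liver, from -0.017 to 0.15 (E2f8) between WT compartments, from -0.37 to 0.018 (E2f7) between Cdk1 Liv-/- compartments, and from -0.20 to 0.036 (E2f3) and -0.22 to 0.30 (E2f2) in the interaction. None of the values that changed sign on omitting a library was past the threshold with all libraries. Depth limits E2f7 and E2f2 most, at 64 and 138 estimated reads in the lowest library if all came from the longest annotated transcript. Shorter transcripts would mean fewer reads: for E2f7 the longest has 5473 bp and the median 827 bp. The replicates are 3 per group, and which cells carry each difference cannot be read from these libraries.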
